A study of Mus musculus with 52 samples.

Results

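GFP-positive vascular endothelial cells (ECs) of the posterior pituitary (PP), the neural lobe of the pituitary gland, were compared by RNA-seq between beta-catenin stabilized and WT mice, with 2 libraries per genotype. These 4 libraries were chosen by the tissue, the genotype and the sorted fraction in their labels, from 52 samples in 26 groups, and every gene was described. WT mice carried Tie2-GFP alone, without Cre, and no dose of 4-hydroxytamoxifen (4HT) is recorded for them. Stabilized mice carried Tie2-GFP, Pdgfb-CreER and BcatEx3fl, an allele of the beta-catenin gene Ctnnb1 from which Cre removes exon 3 so that the protein escapes degradation, and received 100 µg of 4HT at postnatal day 10. Both genotypes were adult males between postnatal days 30 and 90, and the pituitaries of 20 to 30 mice were pooled for each replicate. As recorded, genotype, Cre and 4HT changed together and cannot be told apart. GFP was driven by Tie2 regulatory sequences, which mark ECs and are also known to be active in some blood-derived cells, and Pdgfb-CreER recombines in ECs. Values given for PP, AP or cerebellum ECs are those of all cells sorted as GFP-positive, whatever their source. Cells were freed with papain and sorted by GFP after exclusion of dead cells, and the GFP-negative cells of the same lobes were sequenced too.

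Ctnnb1 itself (chr9:120929216-120960507, plus strand; GRCm38, as for all positions here) was measured at 874 and 1478 CPM in the WT libraries and 1268 and 1398 CPM in the stabilized libraries. The groups overlapped and the difference was not called (log2 fold change 0.18 ± 0.30 SE, edgeR adjusted p = 0.866), and without WT replicate 1 its sign turned (log2 fold change -0.13). Values per gene do not show whether exon 3 is present, so this is not a check of the recombination.

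Beta-catenin is the effector of canonical Wnt signaling. When a Wnt ligand or Norrin binds a Frizzled receptor with its LRP coreceptor, beta-catenin is spared from degradation, enters the nucleus and acts with TCF and LEF factors on target genes, several of which code for inhibitors of the same pathway. In most brain capillaries this signaling maintains the blood-brain barrier (BBB), with tight junctions, nutrient transporters and efflux pumps. The PP, where vasopressin and oxytocin pass into the blood, is a circumventricular organ whose capillaries are normally permeable and fenestrated.

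The 4 libraries held between 17260078 and 28788137 estimated reads, within the range of all 24 sorted libraries (12157485 to 37529274). Levels are given as CPM, counts scaled to library size with TMM normalization, and genes were tested with edgeR's quasi-likelihood test on the 12 GFP-positive libraries of PP, anterior pituitary (AP) and cerebellum. A gene was called when it changed at least 2-fold and its p, adjusted over the 17915 genes tested, lay under 0.05. Each p-value and SE rests on the spread of the gene between replicates over all 12 pooled libraries, and so not on the PP libraries alone. A gene with close PP replicates can therefore fail the test. The 50 genes with the highest TPM took 43.4% and 58.0% of the TPM in the WT libraries and 70.4% and 71.9% in the stabilized libraries. The median gene shifted by -0.44 on the log2(TPM + 0.1) scale but by 0.01 after TMM normalization. Of the genes tested, 19% and 27.5% were at 0 in the WT libraries and 12.9% and 14.3% in the stabilized libraries. The summed level of 40 pan-endothelial genes was 27050.0 and 30800.0 CPM in WT and 15420.0 and 17670.0 CPM in stabilized GFP-positive cells, and 167 and 110.4 CPM in WT and 162 and 102 CPM in stabilized GFP-negative cells. Transcripts of pituitary endocrine cells summed to 2428 and 456 CPM in WT and 327 and 780.2 CPM in stabilized GFP-positive cells, most of it Pomc, and WT replicate 1 stood above the others.

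In stabilized PP ECs 224 genes rose (1.25% of the genes tested) and 97 fell (0.541%). By the lists described below, 19 of 30 BBB transporters, 6 of 20 genes of Wnt feedback and targets, 7 of 27 macrophage genes, 3 of 23 cytokines and chemokines and 3 of 7 MHC class II genes rose. Of 40 pan-endothelial genes 5 fell, as did 2 of 19 genes of VEGF, angiopoietin and apelin signaling, while of 25 matrix genes 3 fell and 4 rose. Rises were much larger than falls: the median log2 fold change was 4.95 among the genes that rose, or 4.9 with genes under 3 reads set to their bound, and -1.59 among those that fell. The paper reports that not all PP ECs of stabilized mice recombined. It proposes that transcripts of the unrecombined ECs could hide part of a fall. The part of this in the difference was not tested. Of the 224 that rose 48 were at 0 in both WT libraries. In the scatter plot of mean levels the genes that rose lie mostly at low WT levels, whereas 71 of the 97 that fell exceeded 100 CPM in both WT libraries. Over all genes tested, 24.3% had both stabilized libraries above both WT libraries in CPM and 18% had both below, which is the background for such counts in each list. A log2 fold change above 0 was found for 9020 of the 17915 genes, the background for counts of sign.

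**Figure D1:**
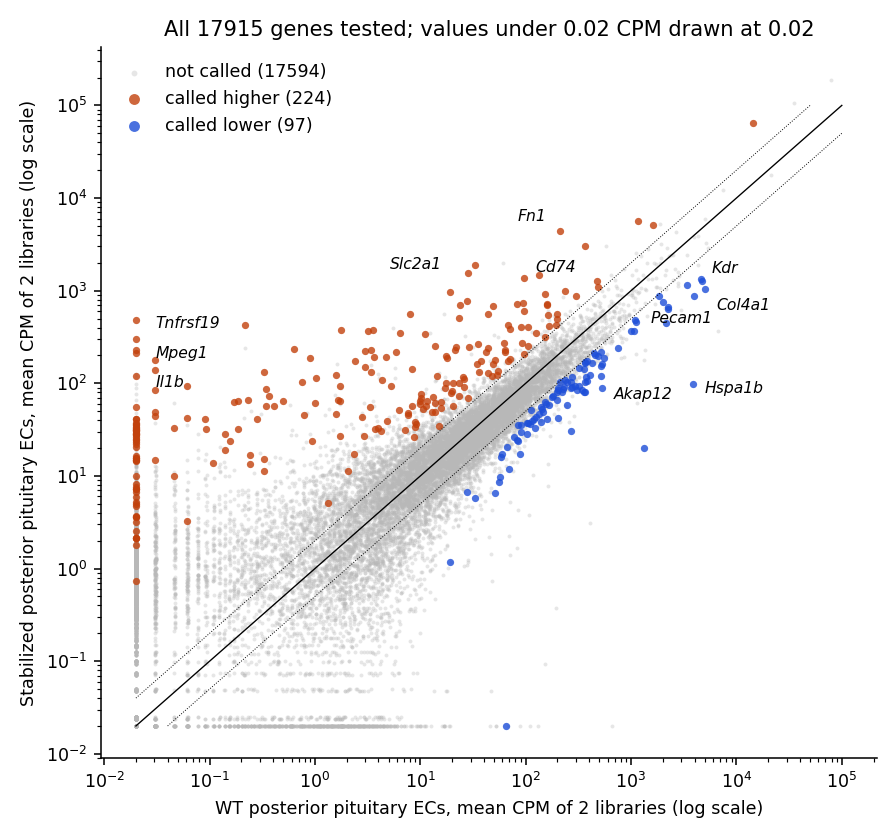
Mean CPM of each of the 17915 genes tested in the 2 WT (x axis) and the 2 stabilized (y axis) libraries of PP ECs, on log axes with values under 0.02 drawn at 0.02. The 224 genes called higher (orange) reach down to a WT level of 0, whereas the 97 called lower (blue) lie mostly at high WT levels, near the dotted line of a 2-fold change apart from Hspa1b and a few others. The solid line marks equal levels and grey points are the 17594 genes not called.

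A fit without 1 of the PP libraries leaves only 1 library in that group, so that the other groups in the fit give the spread. The count of genes depended on the libraries. Without WT replicate 1 it was 772 higher and 372 lower, and without WT replicate 2 it was 182 and 45, without stabilized replicate 1 180 and 20, and without stabilized replicate 2 214 and 39. Of the 224 genes 127 kept their call whichever library was left out, as did 10 of the 97. The genes that fell were also longer: the median effective transcript length was 2.5 kb among them, 1.12 kb among those that rose and 0.96 kb over all genes tested. Genes were cut into 4 equal bins by transcript length. In the bin of the longest 1.36% fell and 1.5% rose, and in the bin of the shortest 0.112% fell and 1.16% rose. With an offset for length 126 of the 224 rises and 19 of the 97 falls kept their call, and the part of length in these differences was not tested further. In a fit of the 4 PP libraries alone, which has fewer libraries to estimate the spread, 76 of the 224 rises and 4 of the 97 falls kept their call. Those that did included 12 of 19 BBB transporters, 4 of 6 genes of Wnt feedback, 6 of 7 macrophage genes and all 3 MHC class II genes, but none of the pan-endothelial, growth factor receptor, fenestral, Notch and matrix genes that fell.

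Lists of marker and pathway genes, chosen with earlier results of these data known, held 529 of the genes tested, of which 65 rose and 14 fell. The lists of BBB genes held 33 of the 224 genes that rose among 79 members (41.8%), the Wnt lists 9 among 41 (22.0%) and the immune lists 17 among 136 (12.5%), beside 1.25% of all genes tested. On the log2(TPM + 1) scale the medians of several lists were smaller than those given below, at 1.42 for BBB transporters, 0.54 for other BBB genes and 0.38 for interferon-induced genes, and that of macrophage genes was 2.996. The median of all genes tested was -0.32 on that scale.

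**Figure D2:**
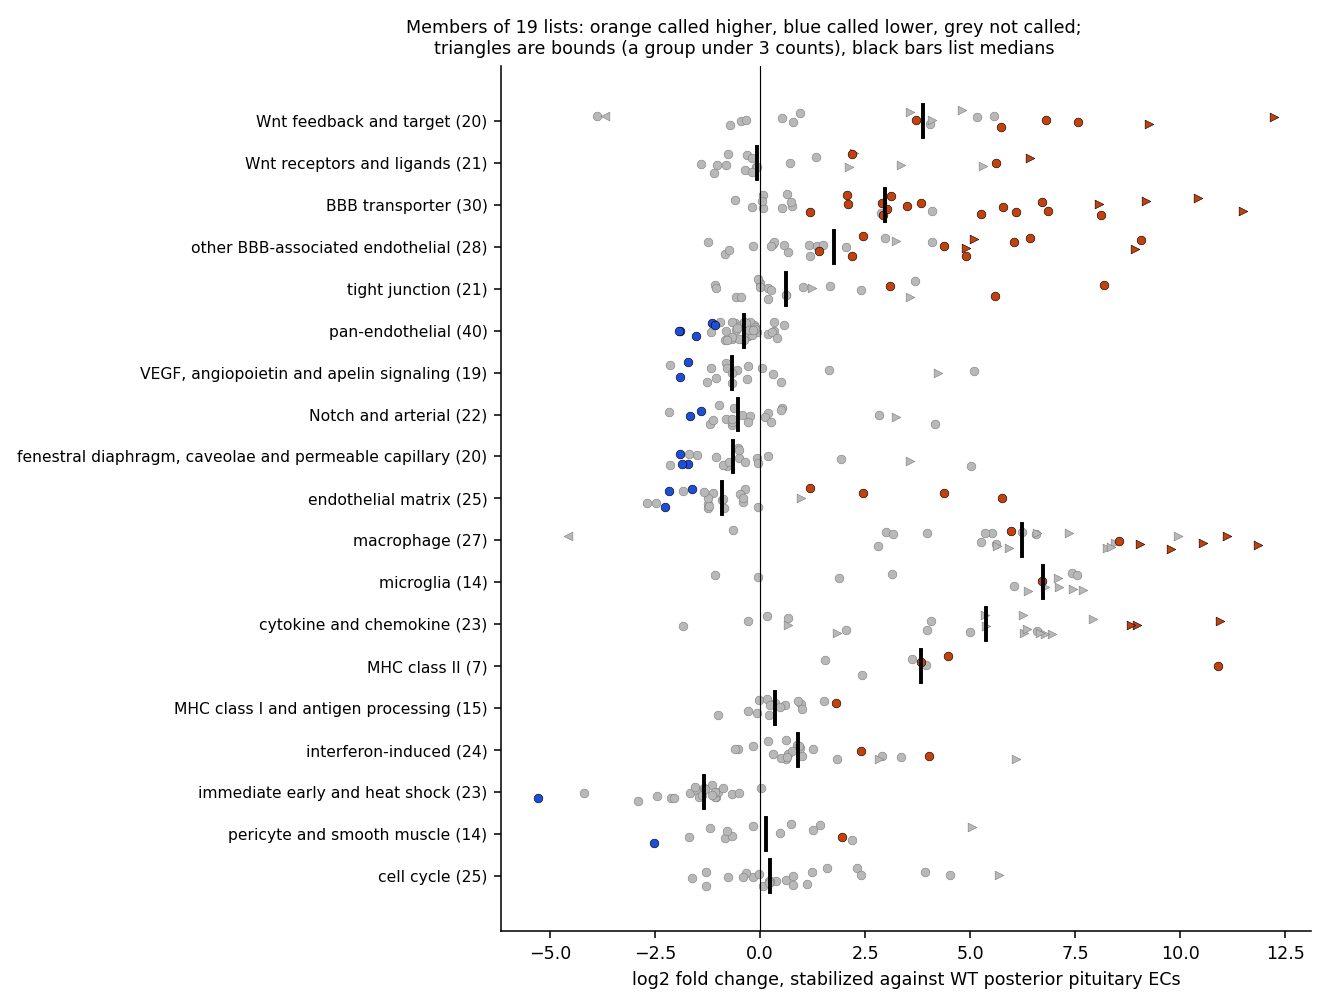
Log2 fold change (stabilized over WT PP ECs, x axis) of every tested member of 19 lists, 1 row per list. Points are genes, orange where called higher, blue where called lower and grey where not called. Triangles are bounds for genes under 3 reads in a group, and black bars are list medians with such genes at their bound. The BBB transporter list has its median at 2.97 and the macrophage list at 6.22, whereas the pan-endothelial list lies around -0.38.

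Several genes that respond to Wnt signaling rose from low WT levels. Of 20 tested genes of Wnt feedback and targets 6 rose (Apcdd1, Axin2, Tcf7, Nkd1, Notum and Tnfrsf19) and the other 14 were not called. The median log2 fold change was 4.33, or 3.88 with genes under 3 reads set to their bound, against 0.01 over all genes tested, and in 15 of the 20 both stabilized libraries stood above both WT libraries. On the log2(TPM + 0.1) and log2(TPM + 1) scales, which understate the change of low genes, the median was 1.47 and 0.23, against -0.44 and -0.32 over all genes tested.

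Among secreted and membrane inhibitors, Notum, an enzyme that inactivates Wnt proteins by removing their lipid, was measured at 0 and 0 CPM in the WT libraries and 29 and 45.6 CPM in the stabilized libraries, which is at least 607-fold higher against a floor of 3 reads over the WT group (edgeR adjusted p = 0.000258). Apcdd1, a membrane protein that binds Wnt, rose 13-fold, from 42 and 45.2 to 506 and 627 CPM (log2 fold change 3.70 ± 0.32 SE, edgeR adjusted p = 7.06e-05). Both stabilized libraries lay far above both WT libraries for each of them. Among intracellular antagonists, Axin2, a scaffold of the complex that degrades beta-catenin, was measured at 2.06 and 1.4 CPM in the WT libraries and 78.3 and 108 CPM in the stabilized libraries (log2 fold change 5.73 ± 1.16 SE, edgeR adjusted p = 0.0291), and the call was lost without WT replicate 2 (edgeR adjusted p = 0.0806). Nkd1, which binds Dishevelled and dampens the signal, was measured at 1.75 and 0.0608 CPM in the WT libraries and 168 and 211 CPM in the stabilized libraries (log2 fold change 7.56 ± 0.84 SE, edgeR adjusted p = 0.000544). The factor Tcf7 was measured at 0.281 and 0 CPM in the WT libraries and 15 and 23.5 CPM in the stabilized libraries (log2 fold change 6.81 ± 1.10 SE, edgeR adjusted p = 0.00854).

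Tnfrsf19, a member of the TNF receptor family and a Wnt target (chr14:60963875-61046490, minus strand), was at 0 in both WT libraries and at 288 and 307 CPM in the stabilized libraries, at least 4816-fold higher (edgeR adjusted p = 2.9e-05). Lef1, the factor that partners beta-catenin on DNA, was measured at 1.03 and 5.84 CPM in the WT libraries and 162 and 152 CPM in the stabilized libraries without passing the test (log2 fold change 5.56 ± 1.30 SE, edgeR adjusted p = 0.0528). Its groups did not overlap. Neither did those of Znrf3, a ligase that clears Frizzled from the membrane, with 5.65 and 0 CPM in WT and 48.8 and 47.5 CPM in stabilized ECs (edgeR adjusted p = 0.113), or of Dkk2, with 2.5 and 0 CPM in WT and 47.4 and 44.5 CPM in stabilized ECs (edgeR adjusted p = 0.114). Ccnd1, the cyclin D1 gene and also a target, did not pass the test and was measured at 398 and 294 CPM in the WT libraries and 256 and 292 CPM in the stabilized libraries (log2 fold change -0.34 ± 0.37 SE, edgeR adjusted p = 0.749).

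Of 21 tested receptors, coreceptors and ligands 3 rose (Reck, Wnt5a and Ror1), and the median was -0.08. Reck, a coreceptor for Wnt7 ligands, rose 4.53-fold from 34 and 42 to 144 and 201 CPM (log2 fold change 2.18 ± 0.29 SE, edgeR adjusted p = 0.00214). Wnt5a, a ligand that mostly acts without beta-catenin, was at 0.0624 and 0.0608 CPM in the WT libraries and 3.17 and 3.3 CPM in the stabilized libraries, and Ror1, a receptor for it, at 0 and 0 CPM in the WT libraries and 5.69 and 4.91 CPM in the stabilized libraries. Wnt5a was higher by 52.3-fold with a 95% counting interval of 17.5 to 257, and Ror1 was at least 85.4-fold higher against the floor of 3 reads (edgeR adjusted p = 0.000363 and 0.0243). The call of Ror1 was lost without WT replicate 2 (edgeR adjusted p = 0.0526). The main receptor genes of brain ECs did not pass the test. Fzd4 was measured at 712 and 1082 CPM in the WT libraries and 523 and 538 CPM in the stabilized libraries (log2 fold change -0.76 ± 0.30 SE, edgeR adjusted p = 0.288). Lrp5 was at 188 and 409.6 CPM in the WT libraries and 86.3 and 138 CPM in the stabilized libraries (log2 fold change -1.41 ± 0.37 SE, edgeR adjusted p = 0.0876), both lower in each stabilized library than in each WT library.

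BBB transporters formed the list with the highest share of rises. Of its 30 tested members 19 rose, the other 11 were not called, and 23 had both stabilized libraries above both WT libraries. The median log2 fold change was 2.97, and 16 of the 19 kept their call whichever library was left out. The summed level of the list was 2901 and 2775 CPM in WT and 8887 and 9738 CPM in stabilized ECs, against 817 and 952 CPM in WT and 866 and 901 CPM in stabilized GFP-negative cells.

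Mfsd2a, which carries the lipid docosahexaenoic acid into brain and restrains transcytosis, was measured at 0 and 0.0608 CPM in the WT libraries and 182 and 173 CPM in the stabilized libraries, a ratio of 8615-fold with a 95% counting interval of 1546 to 340317 (edgeR adjusted p = 2.62e-06). Slco1c1, a thyroid hormone transporter, rose from 3.43 and 3.65 to 406 and 339 CPM (log2 fold change 6.72 ± 0.38 SE, edgeR adjusted p = 2.62e-06). Slc22a8, an organic anion transporter, was at 0.374 and 0 CPM in the WT libraries and 70.2 and 59.5 CPM in the stabilized libraries (log2 fold change 8.12 ± 0.68 SE, edgeR adjusted p = 5.6e-05). All 3 were at under 4 CPM in each WT library and well separated from the stabilized libraries. The amino acid carriers Slc7a5 and Slc7a3 rose too. Slc7a5, the light chain of the large neutral amino acid transporter, was at 15.7 and 0.243 CPM in the WT libraries and 523 and 589 CPM in the stabilized libraries (log2 fold change 6.10 ± 1.13 SE, edgeR adjusted p = 0.0191). Slc7a3, for cationic amino acids, was at 0 in WT and 41.1 and 30.8 CPM in stabilized ECs, at least 579-fold higher (edgeR adjusted p = 0.00268). Slc3a2, the heavy chain that pairs with Slc7a5, was measured at 487 and 377 CPM in the WT libraries and 714 and 729 CPM in the stabilized libraries without passing the test (log2 fold change 0.74 ± 0.25 SE, edgeR adjusted p = 0.198).

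Slc40a1, the iron exporter ferroportin, was at 0.873 and 0.122 CPM in the WT libraries and 71.2 and 59 CPM in the stabilized libraries (log2 fold change 6.86 ± 0.60 SE, edgeR adjusted p = 7.06e-05). Slc19a3, a thiamine transporter, was at 0 in both WT libraries and at 15.5 and 17.7 CPM in the stabilized libraries, at least 269-fold higher (edgeR adjusted p = 0.0139). Slc35f2, a member of a solute carrier family, was at 0 and 0.0608 CPM in the WT libraries and 83.1 and 85.3 CPM in the stabilized libraries, a ratio of 4084-fold with a 95% counting interval of 733 to 161367 (edgeR adjusted p = 2.62e-06). The WT levels of these rest on few reads, which the intervals show. Among abundant members that did not pass, Slc6a6, the taurine transporter, was at 1236 and 1007 CPM in the WT libraries and 762 and 1198 CPM in the stabilized libraries (log2 fold change -0.20 ± 0.28 SE, edgeR adjusted p = 0.833). The efflux pump Abcc4 was at 120.4 and 178 CPM in the WT libraries and 146 and 165 CPM in the stabilized libraries (log2 fold change 0.06 ± 0.30 SE, edgeR adjusted p = 0.992), with overlapping groups in both.

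Other transporters that rose are named after their values were seen. Slc2a1, the glucose transporter GLUT1 (chr4:119108711-119137983, plus strand), rose 55.1-fold, from 25.5 and 31 to 1423 and 1691 CPM (log2 fold change 5.78 ± 0.40 SE, edgeR adjusted p = 1.61e-05), and its groups stood far apart. On the log2(TPM + 0.1) scale the difference of Slc2a1 was 4.47. The organic anion transporter Slco1a4 rose from 39.5 and 57.7 to 673 and 699 CPM (edgeR adjusted p = 0.0012). The efflux pump P-glycoprotein, coded by Abcb1a, rose 4.21-fold, from 234 and 234 to 929.8 and 1045 CPM (log2 fold change 2.08 ± 0.35 SE, edgeR adjusted p = 0.0116). Abcg2, another efflux pump, rose 2.26-fold from 440.1 and 535 to 1142 and 1062 CPM (log2 fold change 1.18 ± 0.25 SE, edgeR adjusted p = 0.037), with the call lost without stabilized replicate 1 (edgeR adjusted p = 0.189) or stabilized replicate 2 (edgeR adjusted p = 0.106). Its TPM was 347 and 275 in WT and 420.2 and 342 in stabilized ECs, so that the groups overlapped on that scale. Metal ion and iron uptake genes were among them, with the zinc transporter Slc39a10 at 88.1 and 76.4 CPM in WT and 684 and 746 CPM in stabilized ECs (edgeR adjusted p = 0.000194). The manganese and zinc transporter Slc39a8 was at 21 and 22.9 CPM in WT and 232 and 266 CPM in stabilized ECs, and the transferrin receptor Tfrc at 6.61 and 2.98 CPM in WT and 46.1 and 33.1 CPM in stabilized ECs (edgeR adjusted p = 0.000148 and 0.0395). The TPM of Tfrc was 10.6 and 1.72 in WT and 10.1 and 3.03 in stabilized ECs, also overlapping. The call of Tfrc was lost without WT replicate 2 (edgeR adjusted p = 0.127), and that of the glutamine transporter Slc38a3, at 1.62 and 3.04 CPM in WT and 27.4 and 6.84 CPM in stabilized ECs, without stabilized replicate 1 (edgeR adjusted p = 0.0984).

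Tight junction genes rose for 3 of 21 tested members. Cldn5, the main claudin of brain capillaries (chr16:18776847-18778262, plus strand), rose 8.58-fold, from 41.3 and 16.1 to 224 and 269 CPM (log2 fold change 3.10 ± 0.48 SE, edgeR adjusted p = 0.00595). Ocln, which codes for occludin, was at 5.77 and 0.243 CPM in the WT libraries and 148 and 153 CPM in the stabilized libraries (log2 fold change 5.58 ± 0.84 SE, edgeR adjusted p = 0.00514). Lsr, a protein of tricellular junctions, was at 0.343 and 0 CPM in the WT libraries and 71.2 and 53.7 CPM in the stabilized libraries (log2 fold change 8.18 ± 1.21 SE, edgeR adjusted p = 0.00451). The 3 genes had separate groups and kept their calls whichever library was left out. The abundant scaffold Tjp1 (ZO-1) was measured at 430.1 and 482 CPM in the WT libraries and 651 and 743 CPM in the stabilized libraries (log2 fold change 0.61 ± 0.25 SE, edgeR adjusted p = 0.301). The adhesion molecule Esam was at 527 and 525 CPM in the WT libraries and 613 and 591 CPM in the stabilized libraries (log2 fold change 0.20 ± 0.25 SE, edgeR adjusted p = 0.794), neither called.

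Of 28 tested other genes associated with BBB endothelium 11 rose and 17 were not called, with a median of 1.76, and 9 of the 11 kept their call whichever library was left out. The call of Itga4 was lost without WT replicate 2 (edgeR adjusted p = 0.2), stabilized replicate 1 (edgeR adjusted p = 0.201) or stabilized replicate 2 (edgeR adjusted p = 0.0746) and that of Itm2a without WT replicate 2 (edgeR adjusted p = 0.0866), stabilized replicate 1 (edgeR adjusted p = 0.0663) or stabilized replicate 2 (edgeR adjusted p = 0.0747). Foxq1, a forkhead transcription factor, was at 0 and 0.487 CPM in the WT libraries and 14.2 and 19.2 CPM in the stabilized libraries (log2 fold change 6.43 ± 0.84 SE, edgeR adjusted p = 0.00265). Spock2, a proteoglycan, rose from 27.4 and 20.1 to 673 and 744 CPM (log2 fold change 4.90 ± 0.49 SE, edgeR adjusted p = 0.00023). Fn1, fibronectin, rose 20.7-fold from 219 and 208 to 3676 and 5146 CPM (log2 fold change 4.37 ± 0.42 SE, edgeR adjusted p = 0.000176). Degs2, a sphingolipid desaturase, was at 0 in both WT libraries and at 36.4 and 24.3 CPM in the stabilized libraries, at least 487-fold higher (edgeR adjusted p = 4.06e-05). Each of these 4 genes had separate groups and kept its call with any library left out. The endothelin gene Edn3 was at 0 and 0.487 CPM in WT and 14.2 and 12.5 CPM in stabilized ECs (edgeR adjusted p = 0.0113). Ly6c1, a surface antigen of brain ECs, was measured at 1339.9 and 888 CPM in the WT libraries and 2371 and 2676 CPM in the stabilized libraries, higher in both stabilized libraries but short of the threshold (log2 fold change 1.18 ± 0.29 SE, edgeR adjusted p = 0.0623). Ddc, the enzyme dopa decarboxylase, was called on fewer than 4 CPM in every library, at 0 in WT and at 3.92 and 0.377 CPM in the stabilized libraries.

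Several general EC genes fell. Of 40 tested pan-endothelial genes 5 fell (Ushbp1, Kdr, Ptprb, Arhgef15 and Pecam1) and the other 35 were not called, while 23 of the 40 had both stabilized libraries below both WT libraries (57.5%, beside 18% of all genes tested) and 2 had both above. The median log2 fold change was -0.38 against 0.01 over all genes tested, and it was -0.37 with RLE normalization and -0.52 with an offset for length. On the log2(TPM + 0.1) scale it was -1.33, against -0.44 over all genes tested. In bulk libraries fewer ECs among the sorted cells and less of a transcript per EC cannot be told apart. In the same libraries the summed level of 8 fibroblast genes was 68.5 and 113 CPM in WT and 32.3 and 26.4 CPM in stabilized GFP-positive cells, and its part in these falls was not tested.

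Kdr, the main VEGF receptor of ECs (chr5:75932827-75978458, minus strand), fell 3.72-fold, from 4154 and 5268 CPM in the WT libraries to 1152 and 1382 CPM in the stabilized libraries (log2 fold change -1.89 ± 0.32 SE, edgeR adjusted p = 0.0118). Ptprb, a phosphatase that restrains Tie2 and VE-cadherin signaling (chr10:116275523-116389535, plus strand), fell 2.89-fold from 2492 and 4237 to 950.3 and 1379 CPM (log2 fold change -1.53 ± 0.31 SE, edgeR adjusted p = 0.0286). Pecam1, the junctional adhesion molecule CD31 (chr11:106654217-106750628, minus strand), fell 2.09-fold from 1746 and 1901 to 835 and 907 CPM (log2 fold change -1.07 ± 0.24 SE, edgeR adjusted p = 0.0476). In each of the 3 genes the lower WT library stood above the higher stabilized one. Arhgef15, a guanine nucleotide exchange factor of ECs, was at 318 and 329 CPM in WT and 139.6 and 155 CPM in stabilized ECs, and Ushbp1 at 122 and 195 CPM in WT and 37.3 and 45.6 CPM in stabilized ECs (edgeR adjusted p = 0.0364 and 0.0265).

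Kdr alone of the 5 kept its call with each library left out in turn, whereas 2 of the 5 kept it with the length offset and 0 in the fit of the 4 PP libraries alone. The call of Ptprb was lost without WT replicate 2 (edgeR adjusted p = 0.0866) or stabilized replicate 1 (edgeR adjusted p = 0.193), and that of Pecam1 without WT replicate 2 (edgeR adjusted p = 0.11), stabilized replicate 1 (edgeR adjusted p = 0.365) or stabilized replicate 2 (edgeR adjusted p = 0.197). Arhgef15 lost its call without WT replicate 2 (edgeR adjusted p = 0.101), stabilized replicate 1 (edgeR adjusted p = 0.364) or stabilized replicate 2 (edgeR adjusted p = 0.183) and Ushbp1 without WT replicate 2 (edgeR adjusted p = 0.0975), stabilized replicate 1 (edgeR adjusted p = 0.136) or stabilized replicate 2 (edgeR adjusted p = 0.0506). Among abundant members that did not pass, Flt1, a VEGF receptor, was at 3512 and 5041 CPM in the WT libraries and 1579 and 2239 CPM in the stabilized libraries (log2 fold change -1.16 ± 0.30 SE, edgeR adjusted p = 0.0759). Cdh5, VE-cadherin, was at 2586 and 2975 CPM in the WT libraries and 1452 and 1717 CPM in the stabilized libraries (log2 fold change -0.81 ± 0.27 SE, edgeR adjusted p = 0.185). Both were lower in each stabilized library than in each WT library. Cd34 was measured at 845 and 701 CPM in the WT libraries and 756 and 705 CPM in the stabilized libraries (log2 fold change -0.08 ± 0.28 SE, edgeR adjusted p = 0.963), with overlapping groups.

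The VEGF, angiopoietin and apelin list had 2 of 19 members called, Kdr and Nrp1, and a median of -0.67. Nrp1, a coreceptor for VEGF and semaphorins (chr8:128358604-128503363, plus strand), fell 3.3-fold, from 1975 and 2464 to 635 and 709 CPM (log2 fold change -1.72 ± 0.25 SE, edgeR adjusted p = 0.00448), and the call held with each library left out but not in the fit of the 4 PP libraries alone. Tek, the angiopoietin receptor Tie2 whose regulatory sequences drive the GFP of the sort, was measured at 941 and 972 CPM in the WT libraries and 483 and 629 CPM in the stabilized libraries (log2 fold change -0.78 ± 0.25 SE, edgeR adjusted p = 0.161), lower in both stabilized libraries without passing the test. Adgrl4, a receptor of sprouting ECs, was at 2408 and 2198 CPM in the WT libraries and 2301 and 2417 CPM in the stabilized libraries (log2 fold change 0.03 ± 0.26 SE, edgeR adjusted p = 1), with no separation of the groups.

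**Figure D3:**
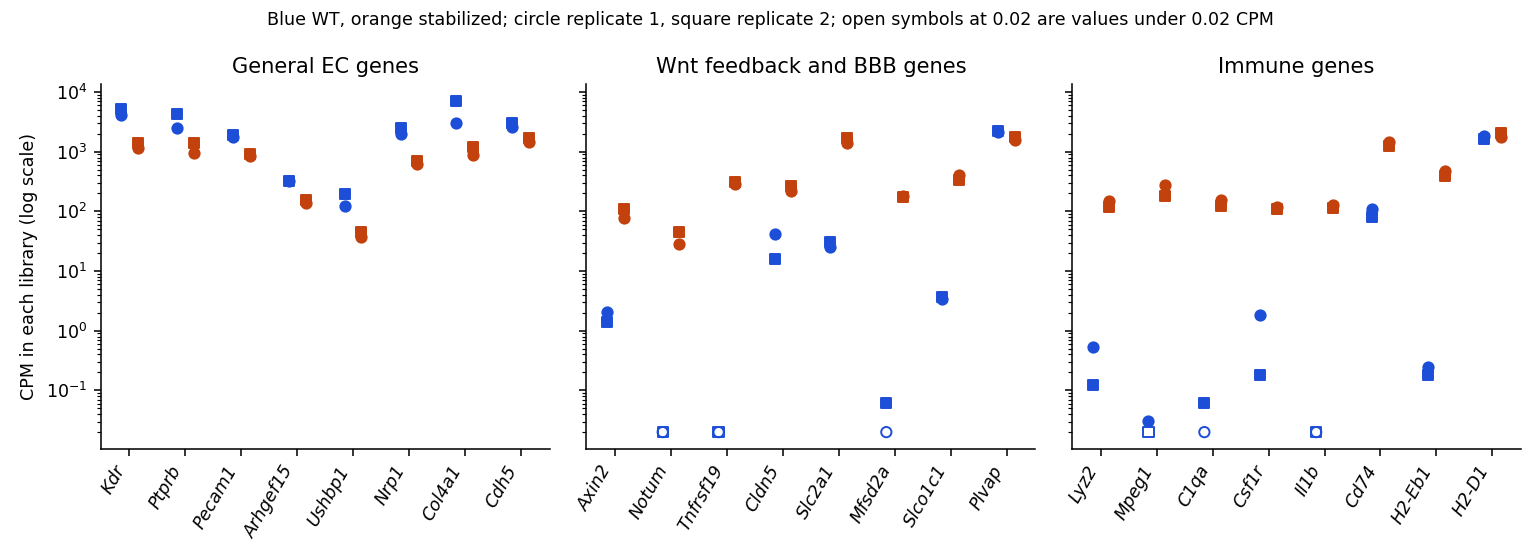
CPM (log axis) of 24 genes in the 2 WT (blue) and 2 stabilized (orange) libraries of PP ECs, with circles for replicate 1 and squares for replicate 2, in panels of general EC genes, Wnt and BBB genes and immune genes. Kdr lies at 4154 and 5268 CPM in WT and at 1152 and 1382 CPM in stabilized ECs, whereas Slc2a1 and Lyz2 have both stabilized points far above both WT points.

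Genes of fenestrae, caveolae and permeable capillaries had 3 of 20 members called lower (Kdr, Plpp3 and Nrp1), a median of -0.64 and 13 members with both stabilized libraries below both WT libraries. Plpp3, a lipid phosphatase, fell 3.6-fold, from 2618 and 1898 to 592 and 662 CPM (log2 fold change -1.85 ± 0.36 SE, edgeR adjusted p = 0.0243), and the call was lost without stabilized replicate 1 (edgeR adjusted p = 0.0849). Plvap, the protein of the fenestral diaphragm (chr8:71497765-71511752, minus strand), was measured at 2106 and 2215 CPM in the WT libraries and 1585 and 1761 CPM in the stabilized libraries. The difference was not called (log2 fold change -0.37 ± 1.39 SE, edgeR adjusted p = 0.973). Both stabilized libraries lay below both WT libraries, and the SE rests on the spread over all 12 libraries. Plpp1 and Igfbp3 were not called either, with 2871 and 1307 CPM in WT and 1493 and 1462 CPM in stabilized ECs and 1104 and 3069.9 CPM in WT and 672 and 618 CPM in stabilized ECs (edgeR adjusted p = 0.642 and 0.453). The water channel Aqp1, at 50.1 and 72.6 CPM in the WT libraries and 1755 and 2191 CPM in the stabilized libraries, was far higher in both stabilized libraries without passing the test (log2 fold change 5.01 ± 1.30 SE, edgeR adjusted p = 0.0819). Among 14 genes of capillary lipid uptake edgeR called 0. DESeq2 called 2 lower, beside 377 of the 17915 genes tested. At an unadjusted p under 0.05 edgeR gave 3 lower, beside 1057 of the 17915. The median of the list was -0.53.

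Of 22 genes of Notch signaling and arterial identity 2 fell, and the median was -0.53. Notch4, the endothelial Notch receptor, fell 3.19-fold from 278 and 474 to 90.2 and 145 CPM (log2 fold change -1.68 ± 0.36 SE, edgeR adjusted p = 0.0364). Efnb2, the arterial ligand ephrin-B2, fell 2.63-fold from 251 and 287 to 109 and 95.7 CPM (log2 fold change -1.40 ± 0.26 SE, edgeR adjusted p = 0.0206). The groups were separate in both, but the call of Notch4 was lost without WT replicate 2 (edgeR adjusted p = 0.159) or stabilized replicate 1 (edgeR adjusted p = 0.25) and that of Efnb2 without WT replicate 2 (edgeR adjusted p = 0.0649), stabilized replicate 1 (edgeR adjusted p = 0.101) or stabilized replicate 2 (edgeR adjusted p = 0.161). Cxcl12 and Notch1 were measured at 793 and 738 CPM in WT and 457 and 511 CPM in stabilized ECs and 410.3 and 579 CPM in WT and 200.3 and 361 CPM in stabilized ECs without passing the test (edgeR adjusted p = 0.595 and 0.267).

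Matrix genes of ECs split by member. Of 25 tested 3 fell (Col4a1, Col4a2 and Itga1) and 4 rose (Col18a1, Fn1, Itga4 and Mmrn1), and 18 had both stabilized libraries below both WT libraries, with a median of -0.90. Col4a1 and Col4a2, the chains of basement membrane collagen IV, lie head to head at chr8:11198423-11312826, minus strand, and chr8:11312805-11449287, plus strand. Col4a1 fell from 2981 and 7082 to 893 and 1216 CPM (log2 fold change -2.25 ± 0.45 SE, edgeR adjusted p = 0.028). Col4a2 fell from 2452 and 5397 to 749 and 991 CPM (log2 fold change -2.17 ± 0.43 SE, edgeR adjusted p = 0.0252), with WT replicate 2 over 2 times as high as WT replicate 1 in both. Their calls were lost without WT replicate 2 (edgeR adjusted p = 0.0775) or stabilized replicate 1 (edgeR adjusted p = 0.0849), and without WT replicate 2 (edgeR adjusted p = 0.0691) or stabilized replicate 1 (edgeR adjusted p = 0.0822). Itga1, the collagen receptor subunit integrin alpha 1, fell from 537 and 953 to 217 and 269 CPM (log2 fold change -1.62 ± 0.29 SE, edgeR adjusted p = 0.0154), a call lost without WT replicate 2 (edgeR adjusted p = 0.065) or stabilized replicate 1 (edgeR adjusted p = 0.109). Col18a1, a heparan sulfate collagen of the basement membrane, rose from 10.6 and 2.13 to 316 and 382 CPM (log2 fold change 5.76 ± 0.68 SE, edgeR adjusted p = 0.000771), a call that held with each library left out. The call of Mmrn1 was lost without WT replicate 1 (edgeR adjusted p = 0.0613), WT replicate 2 (edgeR adjusted p = 0.0955), stabilized replicate 1 (edgeR adjusted p = 0.233) or stabilized replicate 2 (edgeR adjusted p = 0.219). Sparc, at 3982 and 3874 CPM in WT and 3796 and 3753 CPM in stabilized ECs, was not called (log2 fold change -0.06 ± 0.29 SE, edgeR adjusted p = 0.991).

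Venous and leukocyte adhesion genes had 1 of 15 called, Vcam1, which binds leukocyte integrins and rose from 18.3 and 16.7 to 101 and 99.5 CPM (log2 fold change 2.52 ± 0.42 SE, edgeR adjusted p = 0.00993). Vwf, von Willebrand factor, was measured at 83.7 and 204 CPM in the WT libraries and 372 and 594 CPM in the stabilized libraries (log2 fold change 1.75 ± 0.43 SE, edgeR adjusted p = 0.069). The endothelial selectins Sele and Selp were at 1.9 and 1.22 CPM in WT and 6.74 and 6.37 CPM in stabilized ECs and at 2.43 and 1.16 CPM in WT and 9.06 and 11.6 CPM in stabilized ECs (edgeR adjusted p = 0.771 and 0.694). Among 21 genes of BMP and TGF-beta signaling the receptor Tgfbr1 rose, from 67 and 60.8 to 267 and 166 CPM (log2 fold change 1.76 ± 0.34 SE, edgeR adjusted p = 0.0225), a call lost without WT replicate 2 (edgeR adjusted p = 0.0767) or stabilized replicate 1 (edgeR adjusted p = 0.174). Bmpr2, the BMP receptor, was at 1745 and 2055 CPM in WT and 906 and 1226 CPM in stabilized ECs (edgeR adjusted p = 0.161).

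Some immune genes rose, 17 of the 136 in the immune lists. The macrophage list started from a low WT level. Of 27 tested macrophage genes 7 rose (Laptm5, Lyz2, C1qb, C1qa, Tyrobp, Mpeg1 and Ms4a7) and 25 had both stabilized libraries above both WT libraries (92.6%, beside 24.3% of all genes tested). The median log2 fold change was 7.98, or 6.22 with genes under 3 reads set to their bound. The summed level of the list was 21.6 and 28.5 CPM in WT and 2038 and 1356 CPM in stabilized GFP-positive cells, and 167 and 78.7 CPM in WT and 511 and 193 CPM in stabilized GFP-negative cells, where the median of the list was 2.1.

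Lyz2, lysozyme, was measured at 0.53 and 0.122 CPM in the WT libraries and 148 and 120.3 CPM in the stabilized libraries (log2 fold change 8.55 ± 0.92 SE, edgeR adjusted p = 0.00044). Mpeg1, perforin-2, was at 0.0312 and 0 CPM in the WT libraries and 281 and 179 CPM in the stabilized libraries, a ratio of 11080.4-fold with a 95% counting interval of 1988 to 437698 (edgeR adjusted p = 0.00472). Ms4a7 was at 0 in WT and 82.8 and 26.9 CPM in stabilized GFP-positive cells, at least 872-fold higher (edgeR adjusted p = 0.00382). Of the complement chains made by tissue macrophages, C1qa was at 0 and 0.0608 CPM in the WT libraries and 154 and 122 CPM in the stabilized libraries (edgeR adjusted p = 0.0243). C1qb was at 0 and 0.122 CPM in the WT libraries and 99.8 and 85 CPM in the stabilized libraries (edgeR adjusted p = 0.0124). In all 5 genes the WT libraries held nearly none of the transcript and both stabilized libraries held much more. Tyrobp, a signaling adaptor of myeloid cells, was at 0 in WT and 34.2 and 31.2 CPM in stabilized GFP-positive cells (edgeR adjusted p = 0.0386). Its call was lost without WT replicate 2 or stabilized replicate 1. Ctss, the protease cathepsin S, reached 505 and 294 CPM in the stabilized libraries against 0.156 and 10.8 CPM in WT without passing the test (log2 fold change 6.22 ± 1.59 SE, edgeR adjusted p = 0.0784).

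Of 14 tested microglia genes Csf1r, the receptor for the macrophage growth factor CSF1, rose, at 1.87 and 0.183 CPM in the WT libraries and 117 and 109 CPM in the stabilized libraries (log2 fold change 6.70 ± 1.44 SE, edgeR adjusted p = 0.0371), a call lost without WT replicate 2 (edgeR adjusted p = 0.0814). The defining microglia genes were low but higher in both stabilized libraries, with Cx3cr1 at 0.437 and 0.0608 CPM in WT and 62.4 and 38.3 CPM in stabilized GFP-positive cells. P2ry12 was at 0.125 and 0 CPM in WT and 5.84 and 3.73 CPM in stabilized GFP-positive cells and Tmem119 at 0 and 0.0608 CPM in WT and 13 and 12.6 CPM in stabilized GFP-positive cells (edgeR adjusted p = 0.0535, 0.44 and 0.122). In all, 12 of the 14 had both stabilized libraries above both WT libraries. Lyve1 and F13a1, markers of perivascular macrophages, were at 2.62 and 0 CPM in WT and 0 and 0.0472 CPM in stabilized GFP-positive cells and 4.02 and 0 CPM in WT and 2.16 and 0.425 CPM in stabilized GFP-positive cells. Among 12 neutrophil and monocyte genes and 12 T, NK and B lymphocyte genes edgeR called 0 at this depth. DESeq2 called 2 higher in each list, beside 808 of the 17915 genes tested. At an unadjusted p under 0.05 edgeR gave 2 and 3 higher, beside 1253 of the 17915. In each of the neutrophil and lymphocyte lists 8 of the 12 had a log2 fold change above 0, beside 9020 of the 17915 genes tested. The summed level of the neutrophil and monocyte list was 23.9 and 12.1 CPM in WT and 37.2 and 25.6 CPM in stabilized GFP-positive cells.

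Of 23 tested cytokines and chemokines 3 rose. Il1b, interleukin-1 beta (chr2:129364570-129371139, minus strand), was at 0 in both WT libraries and at 129 and 114 CPM in the stabilized libraries, at least 1956-fold higher (edgeR adjusted p = 2.9e-05). For comparison, Il1b was at 11.4 and 17.1 CPM in the WT and 12.2 and 3.31 CPM in the stabilized GFP-negative libraries. The chemokines Ccl3 and Ccl4, also at 0 in WT, reached 29.9 and 32.1 CPM and 37.7 and 19.2 CPM (edgeR adjusted p = 0.0199 and 0.0243), and the call of Ccl4 was lost without stabilized replicate 1 (edgeR adjusted p = 0.109). Cx3cl1, a chemokine of ECs and neurons, was measured at 198 and 139 CPM in WT and 192 and 183 CPM in stabilized ECs and Il6 at 2.21 and 0 CPM in WT and 0 and 0.613 CPM in stabilized ECs, with overlapping groups (edgeR adjusted p = 0.947 and 0.859).

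MHC class II genes, which present antigen on myeloid cells and on activated ECs, rose for 3 of 7 members, and all 7 had both stabilized libraries above both WT libraries. Cd74, the invariant chain, was at 112 and 79.6 CPM in the WT libraries and 1482 and 1244 CPM in the stabilized libraries (log2 fold change 3.83 ± 0.63 SE, edgeR adjusted p = 0.00999). H2-Aa was at 23.2 and 23.2 CPM in the WT libraries and 588 and 436 CPM in the stabilized libraries (log2 fold change 4.46 ± 0.50 SE, edgeR adjusted p = 0.000561). H2-Eb1 was at 0.25 and 0.183 CPM in the WT libraries and 473 and 389 CPM in the stabilized libraries (log2 fold change 10.88 ± 1.39 SE, edgeR adjusted p = 0.00227). The groups were separate in each, and the 3 calls held with any library left out. The summed level of the list was 175 and 131 CPM in WT and 2917 and 2418 CPM in stabilized GFP-positive cells and 28.2 and 20.8 CPM in WT and 289 and 48.3 CPM in stabilized GFP-negative cells. Of 15 MHC class I and antigen processing genes H2-T23 rose, from 45.2 and 57.4 to 167 and 189 CPM (log2 fold change 1.80 ± 0.32 SE, edgeR adjusted p = 0.0165), a call lost without stabilized replicate 2 (edgeR adjusted p = 0.064). The list had a median of 0.35, or -0.27 on the log2(TPM + 0.1) scale, where the median of all genes tested was -0.44. H2-D1, a classical class I gene, was measured at 1825 and 1626 CPM in the WT libraries and 1796 and 2068 CPM in the stabilized libraries (log2 fold change 0.16 ± 0.28 SE, edgeR adjusted p = 0.877).

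Interferon-induced genes rose for 2 of 24 members, Gbp3 and Ifit1, and 15 had both stabilized libraries above both WT libraries. Gbp3, a guanylate-binding protein, was at 15.5 and 18.7 CPM in the WT libraries and 97.6 and 81.6 CPM in the stabilized libraries (log2 fold change 2.39 ± 0.32 SE, edgeR adjusted p = 0.00227). Ifit1, which binds foreign RNA, was at 6.33 and 0.365 CPM in the WT libraries and 58.6 and 52 CPM in the stabilized libraries (log2 fold change 4.01 ± 0.85 SE, edgeR adjusted p = 0.0364). The median of the list was 0.90. How far the immune transcripts come from blood-derived cells in the GFP-positive gate and how far from ECs was not tested.

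**Figure D4:**
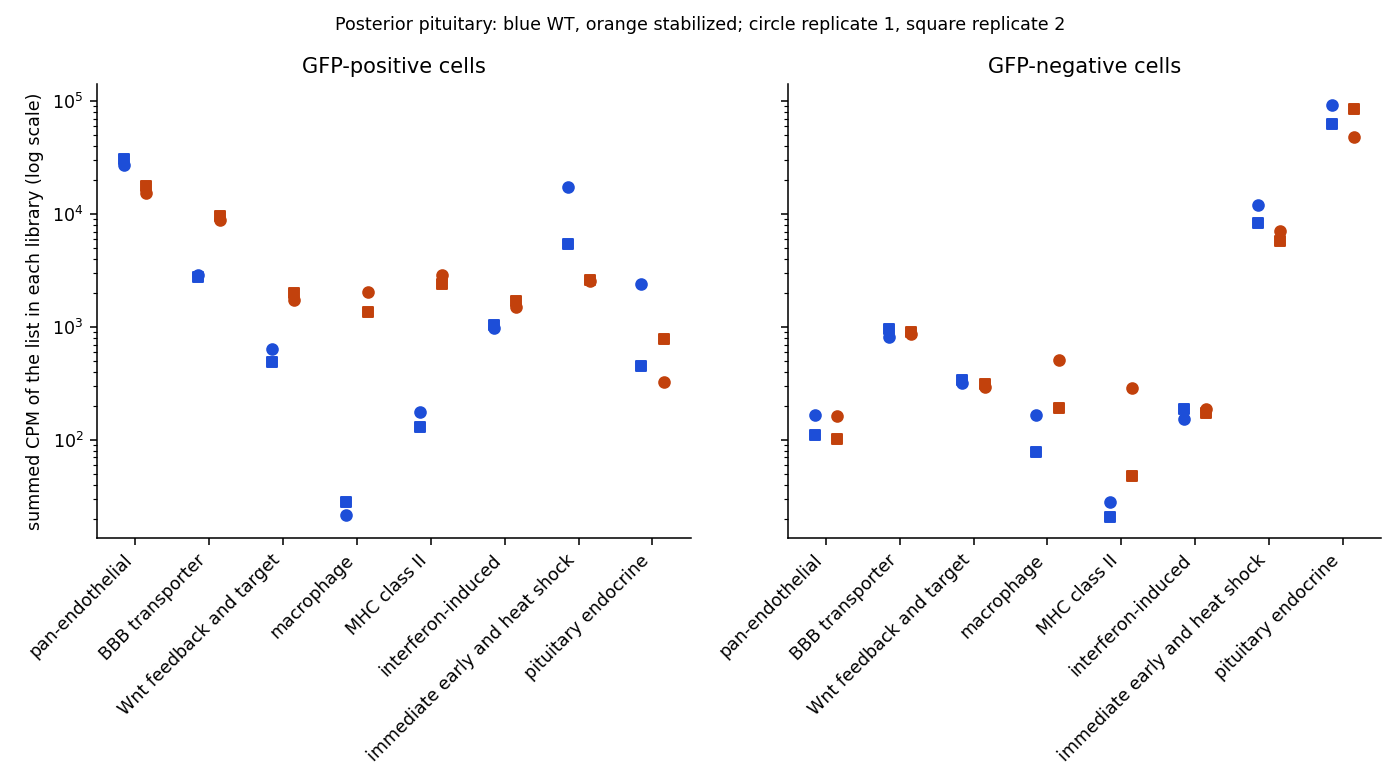
Summed CPM (log axis) of 8 lists in each GFP-positive library (left) and GFP-negative library (right) of the PP, blue for WT and orange for stabilized, circles for replicate 1 and squares for replicate 2. The macrophage list lies at 21.6 and 28.5 CPM in WT and at 2038 and 1356 CPM in stabilized GFP-positive cells, and the pan-endothelial list is over 100 times as high in GFP-positive as in GFP-negative cells of WT.

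Markers of other cell types gave few calls. All 8 fibroblast genes had a log2 fold change below 0 in GFP-positive cells (median -2.61), with both stabilized libraries below both WT libraries in 4. In GFP-negative cells all 8 were above 0 (median 1.58). Over all genes tested 9020 of 17915 were above 0 in GFP-positive cells and 10684 of 19612 in GFP-negative cells. Of 10 neuron genes 3 were above 0, with a median of -1.56, or -0.59 with genes under 3 reads set to their bound. Of 14 pericyte and smooth muscle genes Pdgfrb, the PDGF receptor of pericytes, fell from 33.9 and 32.1 to 7.35 and 4.15 CPM (log2 fold change -2.52 ± 0.50 SE, edgeR adjusted p = 0.027), a call lost without stabilized replicate 2 (edgeR adjusted p = 0.125). Notch3 rose from 1.5 and 1.16 to 4.98 and 5.28 CPM (log2 fold change 1.94 ± 0.37 SE, edgeR adjusted p = 0.0229), a call lost without WT replicate 2 (edgeR adjusted p = 0.0938), stabilized replicate 1 (edgeR adjusted p = 0.0887) or stabilized replicate 2 (edgeR adjusted p = 0.102). Rgs5, the most abundant pericyte marker measured, was at 479 and 363 CPM in the WT libraries and 267 and 224 CPM in the stabilized libraries (log2 fold change -0.78 ± 0.24 SE, edgeR adjusted p = 0.157). In the GFP-negative cells, with 17 genes called higher (0.0867% of 19612 tested) and 9 lower (0.0459%), Pdgfrb, Rgs5 and Kcnj8 rose instead. Pdgfrb was at 1.84 and 0.142 CPM in the WT and 29.2 and 22.5 CPM in the stabilized GFP-negative libraries (edgeR adjusted p = 0.0489). Rgs5 was at 22.5 and 15.6 CPM in the WT and 250.1 and 88.7 CPM in the stabilized GFP-negative libraries (edgeR adjusted p = 0.036). Kcnj8, a potassium channel of pericytes, was at 0.0275 and 0 CPM in the WT and 5.85 and 7.12 CPM in the stabilized GFP-negative libraries (edgeR adjusted p = 0.0454).

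Of 13 pituicyte and astrocyte genes Glul, glutamine synthetase, which ECs also express, rose from 348 and 247 to 791 and 979 CPM (log2 fold change 1.57 ± 0.29 SE, edgeR adjusted p = 0.0191), a call lost without WT replicate 2 (edgeR adjusted p = 0.0668) or stabilized replicate 2 (edgeR adjusted p = 0.064). Its TPM, at 248 and 158 in WT and 241 and 282 in stabilized ECs, overlapped. Gfap was at 0 and 0 CPM in WT and 0 and 2.22 CPM in stabilized ECs. Among the 8 fibroblast, 10 neuron, 7 oligodendrocyte, 15 endocrine and 9 erythrocyte and platelet genes edgeR called 0. At an unadjusted p under 0.05 it gave 1 fibroblast and 1 endocrine gene lower, beside 1057 of the 17915 genes tested. It also gave 1 erythrocyte gene higher, beside 1253 of the 17915. DESeq2 called 1 erythrocyte gene higher, beside 808 of the 17915. Of the erythrocyte genes Hba-a2 had the smallest p, at 0.437 and 0 CPM in WT and 358 and 122 CPM in stabilized ECs (edgeR adjusted p = 0.098), and it shares nearly all of its sequence with Hba-a1, at 301 and 156 CPM in WT and 247 and 45.1 CPM in stabilized ECs, so that the split of reads between them is uncertain. Of 25 cell cycle genes edgeR called 0, DESeq2 called 1 higher, and 1 higher passed an unadjusted p under 0.05 by edgeR. Over the 17915 genes tested DESeq2 called 808 higher, and 1253 were higher at that unadjusted p. Of the 25 genes, 17 had a log2 fold change above 0, beside 9020 of the 17915, and the median was 0.24. Both stabilized libraries stood above both WT libraries in 6 of the 25 and below in 3.

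Immediate early and heat shock genes, which dissociation is known to induce, were lower: 15 of 23 had both stabilized libraries below both WT libraries, the median was -1.34 and Hspa1b, an inducible HSP70 gene, fell. It was measured at 6568 and 1145 CPM in the WT libraries and 93 and 105 CPM in the stabilized libraries (log2 fold change -5.29 ± 1.2 SE, edgeR adjusted p = 0.0476), with WT replicate 1 far above the others, and the call was lost without stabilized replicate 1 (edgeR adjusted p = 0.0849) or stabilized replicate 2 (edgeR adjusted p = 0.0551). Jun, at 1851 and 829.7 CPM in WT and 196 and 162 CPM in stabilized ECs, and Egr1, at 1770.1 and 471 CPM in WT and 217 and 193 CPM in stabilized ECs, were not called (edgeR adjusted p = 0.0901 and 0.125). The summed level of the list was 17480.0 and 5480.0 CPM in WT and 2540.0 and 2589 CPM in stabilized GFP-positive cells and 12050.0 and 8319 CPM in WT and 7031 and 5821 CPM in stabilized GFP-negative cells. The part of this difference in the other results was not tested.

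The largest changes by the rule of size included genes outside the lists. Size was ranked by the fitted log2 fold change. For genes at 0 in WT only a bound is known, so that their order is not settled. Il1b, Tnfrsf19, Mfsd2a, Mpeg1, Ms4a7 and Tyrobp, described above, were among the 10 largest rises. So was Rgs1, a regulator of G protein signaling in leukocytes, at 0 in WT and 45.6 and 19.4 CPM in stabilized GFP-positive cells (at least 518-fold higher). Pid1, also at 0 in WT, was at 43.5 and 39.7 CPM (at least 671-fold higher), with the call of Pid1 lost without WT replicate 2 (edgeR adjusted p = 0.0975). The mitochondrial gene mt-Co3 and the predicted gene Gm11808 completed them, listed at 0 in WT and at 470.1 and 506 CPM and 159 and 268 CPM in stabilized ECs. Every cell uses mt-Co3, so that its 0 is an estimate and not a level. The ribosomal protein gene Rps18, at 0.281 and 0.973 CPM in WT and 223 and 241 CPM in stabilized ECs, is in the same position, and near-identical copies make such genes uncertain. Of 78 ribosomal protein genes tested 9 were called higher, and the longest effective transcript length among the 78 was 0.735 kb.

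Among rises restricted to genes enriched in stabilized GFP-positive over GFP-negative cells stood Slc7a11, the cystine and glutamate exchanger, at 0.156 and 3.35 CPM in the WT libraries and 316 and 435 CPM in the stabilized libraries (log2 fold change 7.83 ± 1.04 SE, edgeR adjusted p = 0.00214). Elovl7, a fatty acid elongase, was at 1.5 and 0 CPM in the WT libraries and 117 and 87.2 CPM in the stabilized libraries (log2 fold change 6.95 ± 0.99 SE, edgeR adjusted p = 0.00488). Cyp2e1, a cytochrome P450, was at 0 and 0.183 CPM in the WT libraries and 44.6 and 37.5 CPM in the stabilized libraries, a ratio of 661-fold with a 95% counting interval of 226 to 3209.6 (edgeR adjusted p = 0.00609). In all 3 the stabilized libraries stood apart from WT, which the rule that named them required in TPM.

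Among falls, the predicted genes Gm10163, Gm10800, Gm6472 and Gm5898, whose reads may be shared with other copies, gave uncertain values. Gm10800 was at 31.4 and 2646 CPM in WT and 22.8 and 16.9 CPM in stabilized ECs, with 1 WT library far above the rest, and its call was lost without WT replicate 2 (edgeR adjusted p = 0.829), stabilized replicate 1 (edgeR adjusted p = 0.0652) or stabilized replicate 2 (edgeR adjusted p = 0.0664). Akap12, a scaffold for protein kinase A (chr10:4266380-4359470, plus strand), fell 5.87-fold, from 597 and 458 to 87 and 92.7 CPM (log2 fold change -2.55 ± 0.29 SE, edgeR adjusted p = 0.000544). Ceacam1, an adhesion molecule of ECs and epithelia (chr7:25461707-25477603, minus strand), fell 4.5-fold from 379.7 and 349 to 82.9 and 79.1 CPM (log2 fold change -2.17 ± 0.27 SE, edgeR adjusted p = 0.00114). Myo18a, an unconventional myosin, fell 4.45-fold from 245 and 470.4 to 76.1 and 84.6 CPM (log2 fold change -2.15 ± 0.31 SE, edgeR adjusted p = 0.00363). The WT and stabilized libraries were apart in each, which the rule that named them required in TPM, and these calls held with each library left out. Cd24a and Adamts1, a surface glycoprotein and a matrix protease, were at 2714 and 1547 CPM in WT and 505 and 397 CPM in stabilized ECs and at 686 and 351 CPM in WT and 125 and 113 CPM in stabilized ECs (edgeR adjusted p = 0.0268 and 0.0364), with calls lost without stabilized replicate 2 (edgeR adjusted p = 0.0688) and without WT replicate 1 (edgeR adjusted p = 0.0529), stabilized replicate 1 (edgeR adjusted p = 0.077) or stabilized replicate 2 (edgeR adjusted p = 0.0907). Hic1, a transcriptional repressor, Lzts2, which binds beta-catenin, and Dcbld1 also fell. Hic1 was at 54.1 and 57.1 CPM in WT and 7.7 and 9.62 CPM in stabilized ECs, Lzts2 at 53.4 and 61.3 CPM in WT and 10.1 and 9.25 CPM in stabilized ECs and Dcbld1 at 63.1 and 77.1 CPM in WT and 11.3 and 12.5 CPM in stabilized ECs. Their calls were lost without WT replicate 2 (edgeR adjusted p = 0.0682), stabilized replicate 1 (edgeR adjusted p = 0.258) or stabilized replicate 2 (edgeR adjusted p = 0.145), without WT replicate 2 (edgeR adjusted p = 0.115), stabilized replicate 1 (edgeR adjusted p = 0.263) or stabilized replicate 2 (edgeR adjusted p = 0.246) and without WT replicate 2 (edgeR adjusted p = 0.0969), stabilized replicate 1 (edgeR adjusted p = 0.238) or stabilized replicate 2 (edgeR adjusted p = 0.162), respectively.

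The genes that rose or fell outside the lists numbered 159 and 83, and those that follow are named after their values were seen. Mal, a proteolipid of membrane rafts, rose from 47.7 and 18.6 to 1861 and 1930.4 CPM (log2 fold change 5.83 ± 0.45 SE, edgeR adjusted p = 2.9e-05). Cpe, carboxypeptidase E, rose from 33.7 and 22 to 760.3 and 787 CPM (log2 fold change 4.79 ± 0.35 SE, edgeR adjusted p = 2.06e-05). Net1, a guanine nucleotide exchange factor, rose from 25.7 and 12.3 to 962 and 966 CPM (log2 fold change 5.66 ± 0.62 SE, edgeR adjusted p = 0.000474). All 3 held their calls with each library left out and had separate groups. The iron storage gene Fth1 rose 8.21-fold, from 427 and 309 to 2982 and 3066 CPM (log2 fold change 3.04 ± 0.38 SE, edgeR adjusted p = 0.00131). Selenop, a selenium carrier, rose 4.87-fold from 1127 and 1191 to 5926 and 5365 CPM (log2 fold change 2.28 ± 0.27 SE, edgeR adjusted p = 0.000749), and by 1.42 on the log2(TPM + 0.1) scale. Gatm, an enzyme of creatine synthesis, was at 2.06 and 2.74 CPM in WT and 188 and 158 CPM in stabilized ECs, and Ndnf, a secreted neurotrophic factor, at 0 and 6.75 CPM in WT and 205 and 257 CPM in stabilized ECs (edgeR adjusted p = 2.06e-05 and 0.0406). Cd33, a sialic acid-binding receptor, was at 0 and 0.0608 CPM in WT and 61.1 and 37.1 CPM in stabilized GFP-positive cells. C3ar1, a receptor for complement C3a, was at 0.0312 and 0 CPM in WT and 46.6 and 24.2 CPM in stabilized GFP-positive cells, and Tlr13 was at 0 in WT and 31.7 and 25.7 CPM in stabilized GFP-positive cells (edgeR adjusted p = 0.0446, 0.037 and 0.0118). The calls of Cd33 and C3ar1 were lost without WT replicate 1 (edgeR adjusted p = 0.051) or WT replicate 2 (edgeR adjusted p = 0.0721), and without WT replicate 2 (edgeR adjusted p = 0.0937) or stabilized replicate 1 (edgeR adjusted p = 0.0852).

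Podxl, a sialomucin of the luminal EC surface, fell 3.44-fold, from 4644 and 4595 to 1194 and 1496 CPM (log2 fold change -1.78 ± 0.27 SE, edgeR adjusted p = 0.00514). Plxna2, a semaphorin receptor, fell 3.56-fold from 275 and 464 to 107 and 101 CPM (log2 fold change -1.83 ± 0.29 SE, edgeR adjusted p = 0.00717). Mgll, a monoacylglycerol lipase, fell 3.97-fold from 242 and 437 to 85 and 85.8 CPM (log2 fold change -1.99 ± 0.32 SE, edgeR adjusted p = 0.00818). The groups were separate in each and the calls held with each library left out. Heg1, a junctional partner of the CCM proteins, was at 1504 and 2495 CPM in WT and 648 and 857 CPM in stabilized ECs, and Mcam at 341 and 271 CPM in WT and 86.3 and 83.5 CPM in stabilized ECs. Piezo2, a mechanosensitive channel, was at 173 and 325 CPM in WT and 47.4 and 69.2 CPM in stabilized ECs (edgeR adjusted p = 0.0339, 0.027 and 0.0459). The call of Heg1 was lost without WT replicate 2 (edgeR adjusted p = 0.137) or stabilized replicate 1 (edgeR adjusted p = 0.244), that of Mcam without stabilized replicate 1 (edgeR adjusted p = 0.0966) or stabilized replicate 2 (edgeR adjusted p = 0.0961) and that of Piezo2 without WT replicate 2 (edgeR adjusted p = 0.157) or stabilized replicate 1 (edgeR adjusted p = 0.196).

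Genes measured in other tissues to be enriched in ECs were counted among those that fell and rose, with no test of the difference. In WT AP and WT cerebellum, which share no library with the PP, 394 of the genes tested were enriched in GFP-positive over GFP-negative cells (2.2%), and they made up 19 of the 97 genes that fell (19.6%) and 9 of the 224 that rose (4.02%). The median PP log2 fold change of these 394 genes was -0.37, with 120 above 0, beside 0.01 and 9020 of all 17915 genes tested.

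The response of PP ECs was set beside that of AP ECs, the capillaries of the endocrine lobe, tested as the difference of the responses in the same fit. One of the 2 stabilized AP libraries carries labels that name both lobes, and without it 142 genes differed. With all libraries 10 genes responded more in PP ECs (0.0558%) and 13 less (0.0726%). Without PP WT replicate 1 or WT replicate 2, 615 or 67 genes differed. Of all genes tested 79 rose in the AP (0.441%) and 3 fell (0.0167%), and 52.9% had a log2 fold change above 0. Of the 224 genes that rose in the PP 53 also rose in the AP (23.7% of the 224 and 67.1% of the 79), and 190 were above 0, with a median of 1.46. Of the 97 that fell 1 also fell in the AP and 43 were above 0 there, with a median of -0.03. By list, 6 of 27 macrophage genes and 3 of 7 MHC class II genes rose in the AP, with medians of 8.06 and 4.62. Of 40 pan-endothelial genes 0 were called in the AP, with a median of 0.02. In each of these lists 0 members were called with a different response in the PP and the AP.

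Of 30 BBB transporters 3 responded more in the PP (Slc2a1, Slc22a8 and Slc40a1) and the difference was not called for the other 27. In the AP 9 of the 30 rose and the median of the list was 1.55. The log2 fold change of Abcb1a was 2.08 in both lobes, and that of Slco1a4 was 3.82 in the PP and 4.39 in the AP. Slc2a1 was at 34.4 and 27.3 CPM in WT and 81.9 and 145 CPM in stabilized AP ECs, against the 25.5 and 31.0 CPM and 1423 and 1691 CPM of the PP, a difference of 3.91 ± 0.47 SE, edgeR adjusted p = 0.00494. Slc22a8 was at 7.78 and 8.33 CPM in WT and 6.69 and 3.35 CPM in stabilized AP ECs and differed by 8.79 ± 0.82 SE, edgeR adjusted p = 0.00186. Slc40a1 was at 5.41 and 3.9 CPM in WT and 5.52 and 8.36 CPM in stabilized AP ECs, with a difference of 6.29 ± 0.73 SE, edgeR adjusted p = 0.00335. In the AP both stabilized libraries of Slc22a8 lay below both WT libraries, and those of Slc40a1 lay above both WT libraries, but neither gene was called there. Apcdd1, at 86.5 and 109.9 CPM in WT and 140.2 and 215 CPM in stabilized AP ECs, differed by 2.84 ± 0.42 SE, edgeR adjusted p = 0.0182. Srgap3, a GTPase activator, was at 0.437 and 0.243 CPM in the WT libraries and 67.4 and 108 CPM in the stabilized libraries, and at 21 and 14.1 CPM in WT and 22.4 and 29.6 CPM in stabilized AP ECs, a difference of 7.38 ± 0.80 SE, edgeR adjusted p = 0.00246. Grb14, an adaptor of the insulin receptor, and Rps18 were the others among the 5 largest fitted differences, with 6.33 ± 1.03 SE, edgeR adjusted p = 0.0339 and 5.09 ± 0.67 SE, edgeR adjusted p = 0.00971. Grb14 held 2 reads over the WT PP libraries, and near-identical copies make the values of Rps18 uncertain, so that these ranks are uncertain too.

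Other genes had the higher log2 fold change in the AP. Vcam1 was at 0 and 0.0314 CPM in WT and 21.9 and 52.9 CPM in stabilized AP ECs, a difference of -8.34 ± 0.83 SE, edgeR adjusted p = 0.00186. Car4, a carbonic anhydrase of the capillary surface, was at 0 and 0.0943 CPM in WT and 26.2 and 40.2 CPM in stabilized AP ECs, a difference of -8.19 ± 0.83 SE, edgeR adjusted p = 0.00186, while its PP values were 108 and 46.9 CPM in WT and 193 and 154 CPM in stabilized ECs. Both rose from near 0 in the AP and started from a higher WT level in the PP. Cd36, a fatty acid receptor, Gja5, the arterial connexin 40, and Bche were at 0 in both WT AP libraries. In the stabilized ones Cd36 was at 18.2 and 19.4 CPM, while in the PP it was at 48.3 and 35.5 CPM in WT and 40.7 and 40.3 CPM in stabilized ECs. The pericyte markers Pdgfrb and Rgs5 also differed, by -4.83 ± 0.71 SE, edgeR adjusted p = 0.0173 and by -2.19 ± 0.35 SE, edgeR adjusted p = 0.029. Rgs5 was at 233 and 234 CPM in WT and 644 and 602 CPM in stabilized AP ECs. Pdgfrb fell in the PP (log2 fold change -2.52) and was not called in the AP (log2 fold change 2.31, edgeR adjusted p = 0.0806).

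**Figure D5:**
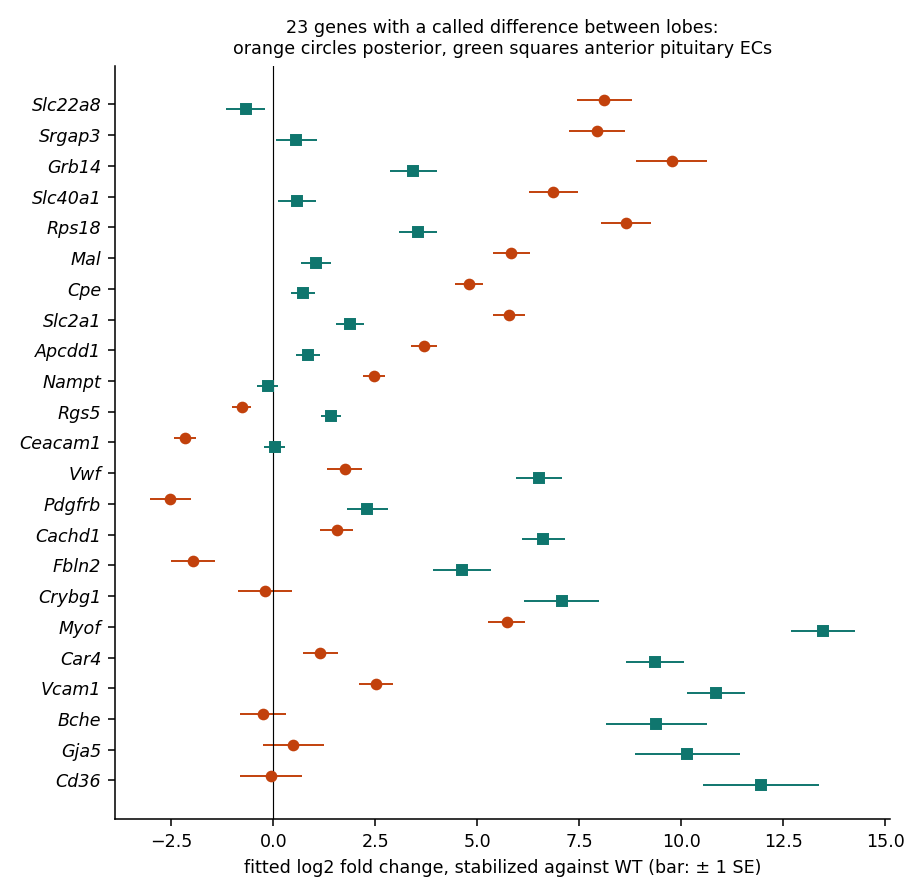
Log2 fold change (stabilized over WT, x axis) of the 23 genes whose response differed between PP (orange circles) and AP (green squares) ECs; bars are SE. Slc2a1 lies at 5.78 in the PP and 1.88 in the AP, while Cd36, at 0 in both WT AP libraries, lies at -0.05 in the PP and 11.96 in the AP, a fitted value that is not a bound.

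Against cerebellum ECs, which have a BBB, 154 genes responded more in the PP (0.86%) and 12 less (0.067%). Without PP WT replicate 1 their number was 681 in all. The median of the BBB transporter list was 0.23 in the cerebellum against 2.97 in the PP, and 11 of its 30 members differed between the tissues, each with the larger response in the PP, as did 5 of the 20 genes of Wnt feedback. Slc2a1 differed by 6.09 ± 0.49 SE, edgeR adjusted p = 6.34e-05 and Slco1c1 by 6.45 ± 0.46 SE, edgeR adjusted p = 2.33e-05. In the cerebellum, where 0.581% of all genes tested fell, 4 immediate early and heat shock genes fell and the list's median was -2.42, against -1.34 in the PP and -1.96 in the AP. Compared with the GFP-negative cells of the same lobes, 54 genes responded more in GFP-positive PP cells (0.253% of 21343) and 40 less (0.187%), among them 4 BBB transporters with the larger and 3 pan-endothelial genes with the smaller response in GFP-positive cells. Pan-endothelial transcripts were far lower in GFP-negative cells, at a summed 167 and 110.4 CPM in WT and 162 and 102 CPM in stabilized libraries, so that fewer reads carry the comparison there.

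Open chromatin of PP ECs was read from ATAC-seq peaks, called in each library alone. The 2 WT libraries held 21050 and 20634 peaks with a fold enrichment over 2 and the 2 stabilized libraries 28926 and 38583, and 17524 and 26074 recurred in both libraries of a genotype. Peaks in both stabilized and no WT library (gained) numbered 7437 and the reverse (lost) 539. Of the genes that rose, 173 of 224 had a gained peak within 100 kb (77.2%), against 58.0% of all genes tested and 72.2% of those that fell. A gained peak within 1 kb of a start was found for 30 of the genes that rose (13.4%), for 5 of those that fell (5.15%) and for 3.91% of all tested. Within 20 kb the shares were 53.6%, 29.9% and 55.7% for genes that rose, all tested and genes that fell. Peak number moved with genotype, and the part of sequencing depth in it was not tested.

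Promoters from RefSeq (GRCm38.p6), 250 bases before to 50 after the start, were searched on both strands for the letters CTTTGAA and CTTTGAT, which TCF and LEF factors are known to prefer. A match was found in 17 of 216 promoters of genes that rose (7.87%), 10 of 95 of genes that fell (10.5%), 974 of 15319 of genes tested (6.36%) and 2842 of all 32851 (8.65%). Counted by gene, with any of its RefSeq promoters holding a match, the shares were 10.5% of 162 genes that rose, 12.5% of 72 that fell, 7.59% of 12020 tested and 9.88% of all 27025. Of the genes that rose, 7 had both a match before the start and a gained peak over the promoter (4.32%, against 37 or 0.308% of the genes tested and 0 of those that fell). A gained peak over a RefSeq promoter alone was found for 14.8% of the genes that rose, 1.39% of those that fell and 3.1% of those tested. Of the 7 genes, 5 were members of the Wnt and BBB lists (Slc19a3, Spock2, Slc7a1, Tnfrsf19 and Slc39a10). The others were Agmo and the MHC class II gene H2-Eb1. The H2-Eb1 match lies 70 bases before the annotated start, under a gained peak with fold enrichments of 6.25 and 6.55 in the stabilized libraries. Among all genes that rose, the BBB lists held 33, the Wnt lists 9 and the immune lists 17. RefSeq gives several starts for some genes, and a window may lie at another start than that of the gene as annotated for the counts. The windows of 3 of the 5 are shown to let the letters be seen beside the peak. They are the 250 bases before the RefSeq start in the direction of the gene, with each match in capitals, at chr1:83038449-83038698, minus strand, for Slc19a3, chr5:148392816-148393065, minus strand, for Slc7a1, a carrier of cationic amino acids, and chr14:61037988-61038237, minus strand, for Tnfrsf19.

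Slc19a3: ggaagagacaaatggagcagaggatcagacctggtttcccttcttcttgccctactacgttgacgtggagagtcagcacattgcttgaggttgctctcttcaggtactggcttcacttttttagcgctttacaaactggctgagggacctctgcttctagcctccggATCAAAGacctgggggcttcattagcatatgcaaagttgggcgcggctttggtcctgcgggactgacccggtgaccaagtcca

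Slc7a1: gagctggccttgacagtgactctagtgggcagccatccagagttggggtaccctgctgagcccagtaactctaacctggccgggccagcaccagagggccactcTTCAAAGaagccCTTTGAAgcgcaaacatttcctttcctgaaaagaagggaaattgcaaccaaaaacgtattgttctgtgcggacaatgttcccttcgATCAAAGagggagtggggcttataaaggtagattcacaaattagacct

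Tnfrsf19: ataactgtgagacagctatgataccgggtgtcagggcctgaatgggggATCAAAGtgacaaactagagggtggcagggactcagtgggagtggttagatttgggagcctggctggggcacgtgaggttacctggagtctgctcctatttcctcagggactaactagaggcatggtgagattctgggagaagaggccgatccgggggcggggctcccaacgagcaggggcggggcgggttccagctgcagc

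The Slc19a3 window ends at the annotated start of the gene, and its match lies 83 bases before it under a gained peak with fold enrichments of 4.96 and 6.14 in the 2 stabilized libraries. The windows of Slc7a1 and Tnfrsf19 belong to other RefSeq starts, 7.09 and 8.5 kb inside the genes as annotated for the counts. The Slc7a1 window holds 3 matches, at 146, 134 and 48 bases before that start, and its gained peak had fold enrichments of 7.58 and 4.88. Slc7a1 itself was measured at 45.5 and 25.1 CPM in the WT libraries and 263 and 271 CPM in the stabilized libraries (log2 fold change 2.91 ± 0.42 SE, edgeR adjusted p = 0.00384). The match of Tnfrsf19 lies 202 bases before its RefSeq start under a peak of 5.49 and 6.73. The Slc39a10 window, not shown, belongs to a RefSeq start 32.9 kb before the gene as annotated for the counts. A match is a description of the letters and does not show that a factor was bound.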

How the data were processed

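RNA was measured in 4 GFP-positive PP libraries, with AP, cerebellum and GFP-negative libraries in the fits. The authors deposited estimated counts and TPM per transcript from Salmon 0.10.2 on Ensembl 92 (GRCm38); amplified single-end cDNA had no molecular identifiers, so intervals cover counting error only. Counts were summed per gene with GENCODE M21, which matched 130338 of 130740 transcripts, and rounded. The peak files deposited give MACS2 fold enrichment, a ratio, and −log10 q; the authors' filter on them was a fold over 2 and a −log10 q over 2.

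The 17915 genes kept by filterByExpr were tested with edgeR 4.0.16 in R 4.3.3 (quasi-likelihood, TMM, Benjamini-Hochberg adjustment, adjusted p under 0.05 and at least 2-fold), with separate fits of 12 GFP-negative and of all 24 libraries, after a test on simulated data. DESeq2 1.42.0, RLE, no filter, an offset for length, a replicate block, other sets of libraries and TPM with pseudocounts of 0.1 and 1 were alternatives. Bounds set groups under 3 reads to 3 reads. The members and lists were chosen with earlier results of these data known.

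Genes were named by a rule: Ctnnb1; the 10 largest rises and falls among called genes whose TPM ranges were separate and reached at least 10 in each library of the group with more; the same among falls enriched in WT GFP-positive cells and among rises enriched in stabilized GFP-positive cells; up to 8 called and 4 abundant uncalled members of each list; and the 5 largest differences between lobes in each direction. Abcb1a, Abcc4, Abcg2, Aqp1, C3ar1, Cd33, Cd34, Cdh5, Cpe, Dkk2, Egr1, F13a1, Fth1, Gatm, Gfap, Heg1, Il6, Itm2a, Lyve1, Mal, Mcam, Mgll, Ndnf, Net1, P2ry12, Piezo2, Plxna2, Podxl, Sele, Selenop, Selp, Slc2a1, Slc38a3, Slc39a10, Slc39a8, Slc7a1, Slco1a4, Tfrc, Tlr13, Tmem119, Vwf and Znrf3 were named outside that rule, chosen after their values were seen, and some genes that it named are not reported here. Replicate numbers did not pair the libraries (correlation of deviations 0.021 in the PP).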

Additional observations from a re-analysis of the deposited data

Results flagged for a closer look

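The response to stabilized beta-catenin differed between PP and AP ECs, by the test of the difference in the fit of 12 libraries, for 23 genes. The response was larger in the PP, in log2 units of the difference, for Nampt (2.60), Apcdd1 (2.84), Slc2a1 (3.91), Cpe (4.07), Mal (4.78), Rps18 (5.09), Slc40a1 (6.29), Grb14 (6.33), Srgap3 (7.38) and Slc22a8 (8.79). The value of Rps18 is uncertain because of near-identical copies of the gene. It was smaller in the PP for Rgs5 (-2.19), Ceacam1 (-2.20), Vwf (-4.76), Pdgfrb (-4.83), Cachd1 (-5.07), Fbln2 (-6.59), Crybg1 (-7.28), Myof (-7.75), Car4 (-8.19), Vcam1 (-8.34), Bche (-9.64), Gja5 (-9.66) and Cd36 (-12.01). Bche, Cd36, Gja5 and Myof were at 0 in both WT AP libraries, so that their fitted differences are no bounds. Vcam1 (0 and 0.0314 CPM), Car4 (0 and 0.0943 CPM) and Crybg1 (0.030 and 0.063 CPM) were near 0 in the WT AP libraries. Grb14 held 2 reads over the WT PP libraries. The fitted differences of these genes rest on few reads and are imprecise.

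By the same test 154 genes responded more and 12 less in PP than in cerebellum ECs. In the fit of 24 libraries 54 genes responded more and 40 less in GFP-positive than in GFP-negative PP cells.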

How the results depend on the processing

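Counts of genes called higher and lower in stabilized PP ECs, 224 and 97 in the fit reported, were 808 and 377 with DESeq2, 588 and 364 with no filter, 135 and 36 with an offset for length, 364 and 210 with a replicate block within each tissue, 411 and 251 without the AP library whose labels name both lobes and 97 and 13 in a fit of the 4 PP libraries alone, which held 76 of the 224 and 4 of the 97. Leaving out one PP library gave 180 to 772 higher and 20 to 372 lower. RLE normalization, a replicate block across tissues and counts of protein-coding genes alone (chosen after seeing the data) stayed within 1.5 times. Replicate numbers are only names here, and a lost call under the block is no sign of a weaker effect. Pan-endothelial genes called lower, 5 in the fit reported, numbered 3 with the length offset, 0 in the PP alone and 1 to 7 with one library left out. Macrophage genes called higher, 7 in the fit reported, numbered 16 with DESeq2, 19 with no filter, 16 with the block within tissue, 16 without the AP library and 6 to 14 with one library left out.

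Genes with a different response in PP and AP ECs (23) numbered 444 with DESeq2, 408 with no filter, 14 with the length offset, 97 with the block within tissue, 142 without the AP library and 27 to 615 with one library left out. Those that differed between PP and cerebellum (166) numbered 1054, 831, 100, 341 and 513 in the same order, and 163 to 681. In GFP-negative cells (26) they numbered 819 with DESeq2, 559 with no filter, 77 with a replicate block and 109 to 617 with one library left out, and between fractions (94) 701 with no filter and 56 with a block by preparation. Genes with a gained peak nearby were 52.1% at a peak fold over 4 and 29.9% within 20 kb over all tested, 70.1% and 53.6% of those that rose, and 55.7% within 20 kb of those that fell. The sign turned for Ctnnb1 (-0.13 without WT replicate 1, against 0.64 without WT replicate 2 and 0.85 with the length offset). The cause of these shifts was not tested.

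Of 145 called genes examined singly 124 moved by over 1 SE on the log2(TPM + 0.1) scale and 131 on the log2(TPM + 1) scale. Among the 224 genes that rose 14 had overlapping groups in TPM, and among the 97 that fell 0. Of the same 145 genes 58 lost their call with the length offset, 82 of 144 in the fit of the 4 PP libraries alone, and 5, 46, 47 and 30 without WT replicate 1, WT replicate 2, stabilized replicate 1 and stabilized replicate 2. With 2 pooled libraries per group, genes under a few CPM rest on few reads and their folds are imprecise.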
